A study of Homo sapiens with 34 samples.

Results

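The expression of 5 genes was followed across the differentiation of ESI017, a long-established line of human embryonic stem cells: the AP-2 transcription factor genes TFAP2A, TFAP2B and TFAP2C, and the surface protein genes VTCN1 and GABRP. They were taken by their symbols, and each had 1 row, so that 5 of 37951 gene identifiers are described. All cells were wild type, and RNA was measured as poly(A) RNA sequencing of 34 libraries, 2 biological replicates of each of 17 conditions. The control cells stayed in pluripotency medium (mTeSR Plus) and carry the time 48 h in their labels.

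On the first day, 4 primitive streak (PS) treatments were applied, which differ in activin, a TGFβ ligand of the Nodal type, in the ligand BMP4, in bFGF, and in CHIR, which activates the Wnt pathway. DE(a) cells were given activin at 100 ng/ml with 2 µM CHIR. Anterior PS (APS) cells were given activin at 30 ng/ml, bFGF at 20 ng/ml and 4 µM CHIR. Mid PS (MPS) cells were given these amounts of activin and bFGF, with BMP4 at 40 ng/ml and 6 µM CHIR. Posterior PS (PPS) cells were treated like MPS cells but without activin. Libraries were made at 24 h or after a second day, at 48 h, in definitive endoderm medium DE(b), paraxial mesoderm (PM) medium or lateral mesoderm (LM) medium. DE(b) medium held activin at 100 ng/ml and 250 nM of the BMP receptor inhibitor LDN. PM medium held bFGF at 20 ng/ml, the same amount of LDN and 1 µM of the activin receptor inhibitor A8301. The study's text also describes CHIR in its PM treatment, which the labels do not list, so that differences from PM may or may not include a Wnt agonist on day 2. LM medium held 1 µM A8301, 4 µM of the Wnt secretion inhibitor IWP2 and BMP4 at 30 ng/ml. A condition is named by both days, so that PPS-LM is PPS on day 1 and LM on day 2.

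AP-2 factors are transcription factors that bind GC-rich DNA as dimers. TFAP2A is known from surface ectoderm, neural crest and the early amnion, and BMP signalling induces it in human pluripotent cells. TFAP2B, its close relative, acts in neural crest and kidney. TFAP2C is known from trophoblast, primordial germ cells and naive pluripotency. The amnion is the extra-embryonic epithelium that encloses the embryo, and both VTCN1 and GABRP are used as its markers. VTCN1 (B7-H4) is a B7 family membrane protein that dampens T cell responses, and GABRP is the pi subunit of the GABA-A receptor, a chloride channel opened by the transmitter GABA. The libraries are of bulk RNA, in which more cells of a type and more RNA per cell cannot be told apart.

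In GRCh38 (GENCODE 44), TFAP2A spans chromosome 6, 10393186 to 10419659, on the minus strand, and TFAP2B spans chromosome 6, 50818723 to 50847619, on the plus strand. TFAP2C lies on the plus strand of chromosome 20, from 56629306 to 56639283. VTCN1 lies on the minus strand of chromosome 1, from 117143587 to 117210960, and GABRP on the plus strand of chromosome 5, from 170763350 to 170814047. The values are estimated counts of transcripts, summed to each gene. Of the 31-base stretches in the transcripts of TFAP2A, 15.1% also occur in other genes when both strands are searched. They lie chiefly in its antisense genes TFAP2A-AS1 and TFAP2A-AS2, which have no row in the deposited data. Only 1 such stretch is shared between AP-2 genes, by TFAP2A and TFAP2B, and TFAP2C shares 0.

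The promoters of VTCN1, GABRP and TFAP2B are shown because these genes had their highest level in the same condition, and because an AP-2 motif could be looked for in them. Each window holds 250 bases before the start of a transcript and 50 after it (RefSeq, GRCh38.p14), is written 5′ to 3′ on the strand of its gene, and has motif matches in capitals. TFAP2C has no entry. The windows are VTCN1 at chr1:117210878-117211177, minus strand, GABRP at chr5:170783475-170783774, plus strand, and TFAP2B at chr6:50818621-50818920, plus strand.
VTCN1: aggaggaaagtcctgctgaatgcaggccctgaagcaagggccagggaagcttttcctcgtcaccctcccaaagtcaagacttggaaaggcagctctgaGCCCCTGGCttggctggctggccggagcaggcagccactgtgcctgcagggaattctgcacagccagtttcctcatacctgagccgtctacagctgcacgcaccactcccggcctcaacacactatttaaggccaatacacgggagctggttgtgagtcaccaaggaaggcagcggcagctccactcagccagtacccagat
GABRP: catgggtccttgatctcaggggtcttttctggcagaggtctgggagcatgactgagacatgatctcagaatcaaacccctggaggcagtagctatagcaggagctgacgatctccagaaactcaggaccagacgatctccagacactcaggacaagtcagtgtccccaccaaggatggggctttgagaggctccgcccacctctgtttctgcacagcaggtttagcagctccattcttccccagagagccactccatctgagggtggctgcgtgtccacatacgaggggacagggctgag
TFAP2B: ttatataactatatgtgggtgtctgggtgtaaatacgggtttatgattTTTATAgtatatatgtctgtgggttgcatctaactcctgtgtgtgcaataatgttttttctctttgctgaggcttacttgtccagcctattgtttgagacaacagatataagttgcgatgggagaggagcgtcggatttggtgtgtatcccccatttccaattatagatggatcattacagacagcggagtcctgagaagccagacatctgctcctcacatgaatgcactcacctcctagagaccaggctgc
These motifs were searched on both strands, and the first and second of them can overlap: GCCNNNGGC, bound by AP-2 factors, GGCGCC, a GC-rich letter string bound by BMP SMADs, AGATAA or TGATAA, bound by GATA factors, and TATAAA. Of 35116 such windows over all genes, 23.2% hold the AP-2 letters, 19.2% GGCGCC, 16.3% a GATA match and 11.5% TATAAA. The VTCN1 window held 1 AP-2 match, GCCCCTGGC, which begins 152 bases before the start, and no other match. The GABRP window held none of the motifs. The capitals in TFAP2B are TATAAA read on the other strand, 202 bases before the start. The window at the outermost start of TFAP2A (chr6:10419610-10419909) held TATAAA 30 bases before the start and no AP-2 match. These are matches of letters, and no binding was measured.

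Levels are given as CPM, counts divided by the library total in megacounts, with both replicates. Totals ranged from 15522780 to 23439799 estimated counts, so that a gene without counts in a library could be at up to 0.128 to 0.193 CPM (3 counts, counting error only). Differences come from edgeR's quasi-likelihood test, fitted in 1 model over all 34 libraries, with Benjamini-Hochberg adjustment over 17895 genes that passed a filter on low counts. They are log2 fold changes with their standard error (SE), and a call means an adjusted p under 0.05. All 5 genes were tested, but TFAP2B and VTCN1 passed the filter only through the PPS-LM libraries. A test of these genes would therefore rest on the condition in which they are high, and they are described by their counts and by ratios of counts with exact 95% intervals (counting error only), with no test. Marker lists were checked against the media. The summed CPM of 6 paraxial mesoderm markers was at least 1051 in PM libraries and at most 468 elsewhere, that of 6 endoderm markers at least 3482 in DE(b) libraries and at most 1981 elsewhere, and that of 6 lateral mesoderm markers was 610 to 2792 in LM libraries, 519 to 1163 in DE(b) and at most 817 elsewhere.

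**Figure D1:**
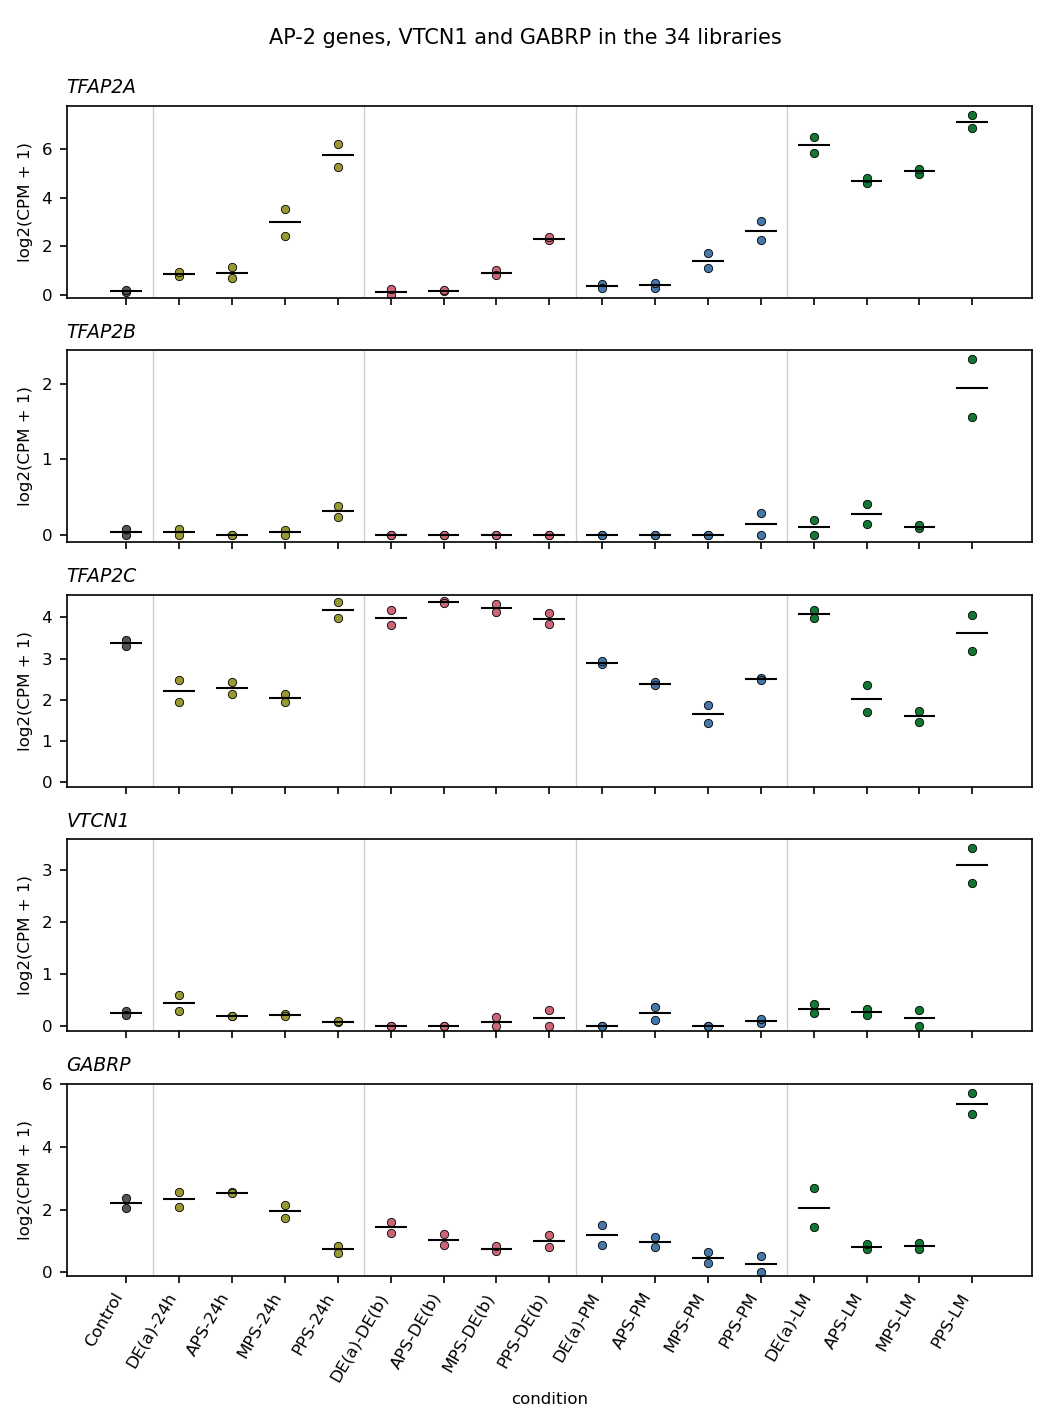
Expression of the 5 genes in each of the 34 libraries as log2(CPM + 1), with 2 points per condition, a bar at their mean, and colours for control, 24 h, DE(b), PM and LM. TFAP2A is high in all LM conditions and at PPS-24h, TFAP2C is high in DE(b), and TFAP2B, VTCN1 and GABRP stand out in PPS-LM, where the GABRP libraries reached 31.8 and 51.9 CPM.

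TFAP2A went from near 0 in pluripotent cells to its highest level in PPS-LM. It was at 0.0903 and 0.160 CPM in the control libraries, which is 2 and 3 counts. It was at 113 and 167 CPM in PPS-LM, a ratio of summed counts of 1140 with an interval of 490 to 3520. At 24 h, TFAP2A was at 0.726 and 0.914 CPM in DE(a), 0.615 and 1.20 in APS, 4.43 and 10.5 in MPS, and 37.4 and 72.5 in PPS. The MPS libraries were above all libraries of DE(a) and APS, and the PPS libraries were above those of MPS.

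TFAP2A was higher in MPS, which had BMP4 and more CHIR, than in APS by 3.04 on the log2 scale (SE 0.49, adjusted p = 0.00071 by edgeR), in a comparison in which 2.93% of all genes were called. It was higher in PPS, without activin, than in MPS by 2.82 (SE 0.42, adjusted p = 0.00024 by edgeR), with 6.14% of all genes called. Between APS and DE(a), 0.732% of genes were called. TFAP2A, TFAP2C and GABRP were not among them, which is common at so small a share. For TFAP2A that difference was 0.13 (SE 0.59). Without any 1 library, the higher level of MPS over APS lay between 2.31 (without MPS-24h replicate 2) and 3.58 (without APS-24h replicate 2), and that of PPS over MPS between 2.27 (without PPS-24h replicate 2) and 3.55 (without MPS-24h replicate 2), all called. In fits of only the 4 libraries compared, the adjusted p of these differences by edgeR was 0.0719 and 0.0504.

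On the second day, TFAP2A depended chiefly on the medium. In LM the 8 libraries lay between 23.2 and 167 CPM (median 45.2), and in PM and DE(b) no library was above 7.14 CPM. LM and the other media thus did not overlap. Over the 4 starting populations, TFAP2A was higher in LM than in PM by 5.81 (SE 0.26, adjusted p = 6.4e-14 by edgeR) and than in DE(b) by 6.89 (SE 0.30, adjusted p = 2.4e-14 by edgeR). These comparisons called 42% and 39.6% of all genes, so that a call in itself is common there. Within each starting population, the difference from PM was between 4.38 (MPS) and 7.85 (DE(a)), and it was called in all 4 of them, with 18.3%, 21.8%, 18.2% and 22.8% of all genes called from DE(a), APS, MPS and PPS.

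Compared with 24 h, TFAP2A rose in LM from every start, by 6.33 from DE(a) (SE 0.53), 4.74 from APS (SE 0.50), 2.15 from MPS (SE 0.42) and 1.40 from PPS (SE 0.39). The adjusted p values by edgeR were 1.3e-08, 1.9e-07, 0.00037 and 0.011, against 32.2%, 37.2%, 31.3% and 25% of all genes called. The rise from PPS was lost without PPS-24h replicate 1 (1.01, adjusted p = 0.13) or without PPS-LM replicate 2 (1.07, adjusted p = 0.14). In DE(b), TFAP2A fell from all 4 starts, by 2.78 from APS (SE 0.81), 3.09 from MPS (SE 0.51) and 3.75 from PPS (SE 0.45), and from DE(a) to 3 counts in 2 libraries, with adjusted p values by edgeR of 0.012, 8.8e-05, 2.5e-06 and 0.01. The background of called genes was 30.6%, 27.9%, 20.5% and 28%. The falls from MPS and PPS held when any of their libraries was left out, and those from DE(a) and APS did not (adjusted p up to 0.11 without DE(a)-DE(b) replicate 1 and 0.13 without APS-24h replicate 2). In PM, it fell by 3.36 from PPS (SE 0.43, adjusted p = 8.1e-06 by edgeR) and by 2.23 from MPS (SE 0.47, adjusted p = 0.0013 by edgeR), with 20.2% and 22.6% of genes called. The difference from MPS was −1.49 without MPS-24h replicate 2, with an adjusted p of 0.052 by edgeR.

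**Figure D2:**
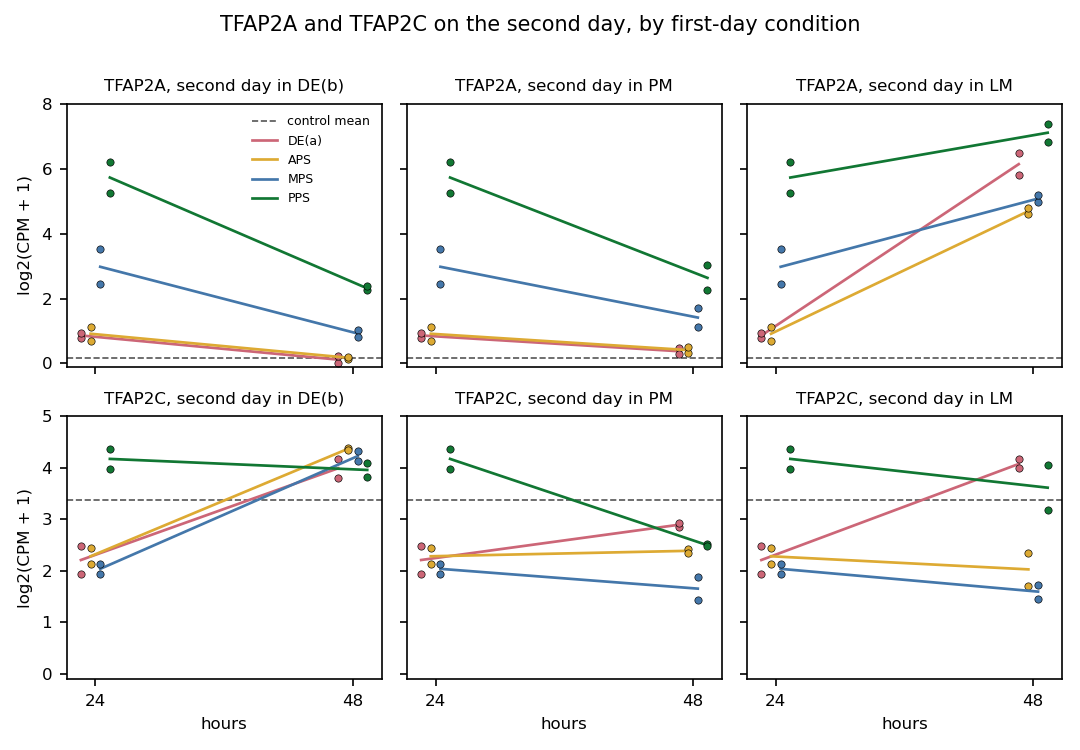
TFAP2A (top) and TFAP2C (bottom) as log2(CPM + 1) at 24 h and 48 h for each second-day medium, with lines between the means of 2 libraries, points for libraries, colours for the starting population, which are set apart sideways, and a dashed line at the control mean. TFAP2A lines rise only in LM, where the libraries reached 23.2 to 167 CPM, and TFAP2C lines converge in DE(b), at 13.0 to 20.0 CPM.

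Levels in DE(b) and PM also differed with the first day. In DE(b), TFAP2A was at 0 and 0.174 CPM after DE(a), 0.110 and 0.148 after APS, 1.02 and 0.773 after MPS, and 3.77 and 4.19 after PPS. PPS-DE(b), with 147 counts, was called higher than DE(a)-DE(b), with 3 (adjusted p = 1.9e-05 by edgeR), in a comparison that called 17.4% of genes. In PM, TFAP2A was at 0.376 and 0.224 CPM after DE(a), 0.239 and 0.427 after APS, 2.27 and 1.17 after MPS, and 7.14 and 3.76 after PPS. PPS-PM exceeded APS-PM by 4.00 (SE 0.57, adjusted p = 0.00013 by edgeR), with 5.25% of genes called. In both media, the PPS libraries were above all libraries from the other starts.

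TFAP2A was at 55.1 and 88.2 CPM in DE(a)-LM, 23.2 and 26.8 in APS-LM, 30.6 and 35.4 in MPS-LM, and 113 and 167 in PPS-LM. PPS-LM was highest and DE(a)-LM next, without overlap between any of the 4. PPS-LM was 2.52 above APS-LM (SE 0.41, adjusted p = 0.00019 by edgeR), with 10.8% of genes called. Its difference from DE(a)-LM, 1.06 (SE 0.39), had an adjusted p of 0.079 by edgeR, and that between APS-LM and MPS-LM, −0.45 (SE 0.39), one of 0.60, with 3.79% of genes called. Against MPS-LM the difference was 2.07 (SE 0.40, adjusted p = 0.0025 by edgeR), with 5.6% of genes called. That call was lost without MPS-LM replicate 1 (1.93, adjusted p = 0.066) or PPS-LM replicate 2 (1.73, adjusted p = 0.065).

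TFAP2C behaved otherwise: it was present in every library, at 1.70 to 20.0 CPM, and its highest levels were in DE(b), where TFAP2A was low. In the control libraries it was at 9.97 and 8.93 CPM. At 24 h it was at 4.59 and 2.84 CPM in DE(a), 4.41 and 3.39 in APS, and 3.39 and 2.86 in MPS, all below both control libraries. In PPS it was at 19.8 and 14.7 CPM, above both of them. PPS exceeded MPS at 24 h by 2.39 (SE 0.32, adjusted p = 6.8e-05 by edgeR), and this held when any of the 4 libraries was left out.

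After the second day in DE(b), the 8 libraries were at 13.0 to 20.0 CPM whatever the start, above all PM libraries (1.70 to 6.63). The rise over 24 h was 1.95 from DE(a) (SE 0.32), 2.29 from APS (SE 0.32) and 2.44 from MPS (SE 0.32), with adjusted p values by edgeR of 8.7e-05, 9.8e-06 and 6e-06 and 28%, 30.6% and 27.9% of all genes called. From PPS, where TFAP2C was already high, the difference was −0.19 (SE 0.30, adjusted p = 0.70 by edgeR). Over the 4 starts, DE(b) was above PM by 2.08 (SE 0.16, adjusted p = 3.5e-10 by edgeR, 43% of genes called). In the same mean over the starts, LM was below DE(b), by −1.49 (SE 0.16, adjusted p = 5.5e-08 by edgeR, 39.6% of genes called). It was above PM by 0.59 (SE 0.16, adjusted p = 0.0045 by edgeR, 42% of genes called). These means cover unlike values. DE(a)-LM, at a mean of 15.9 CPM, was not below DE(a)-DE(b), at 15.1. DE(a)-LM and PPS-LM were above PM from the same starts. APS-LM (3.19) and MPS-LM (2.04) were below APS-PM (4.25) and MPS-PM (2.19) in the mean.

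In LM, TFAP2C was at 16.9 and 14.9 CPM in DE(a)-LM and 8.05 and 15.6 in PPS-LM, against 4.13 and 2.26 in APS-LM and 2.33 and 1.76 in MPS-LM. The first pair of conditions overlapped with each other, and none of their libraries overlapped with the latter pair. DE(a)-LM was above MPS-LM by 2.85 (SE 0.33, adjusted p = 3.5e-06 by edgeR, 14.4% of genes called), and PPS-LM by 2.53 (SE 0.33, adjusted p = 3.8e-05 by edgeR). PPS-LM and DE(a)-LM differed by −0.32 (SE 0.30, adjusted p = 0.60 by edgeR, 14.3% of genes called). The level of DE(a)-LM was reached by a rise of 1.98 on the second day (SE 0.32, adjusted p = 5.4e-05 by edgeR), while that of PPS-LM differed from PPS-24h by −0.49 (SE 0.30, adjusted p = 0.26 by edgeR). In PM the level fell by 1.91 from PPS (SE 0.31, adjusted p = 0.00012 by edgeR). Markers of definitive endoderm, which DE(b) medium induces, moved with part of this: their sum was 141 and 103 CPM in DE(a)-LM, 9.47 and 10.4 in PPS-LM, and 0.354 to 8.83 in the other LM libraries, with the defining gene SOX17 at 94.8 and 69.6 CPM in DE(a)-LM and at 0 and 0.0547 in PPS-LM. Of 6 pluripotency markers, 4 were called higher and 0 lower in DE(a)-LM than in MPS-LM, with a median of 1.37. The part of either group of markers in the level of TFAP2C in DE(a)-LM was not tested.

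TFAP2B was close to absent outside PPS-LM. Of its 142 counts in 34 libraries, 111 were in PPS-LM, 37 in replicate 1 (1.94 CPM) and 74 in replicate 2 (4.04 CPM). In 29 libraries it had at most 3 counts, and in 21 it had 0, among them all 8 DE(b) libraries. The next highest conditions were PPS-24h with 9 counts and APS-LM with 8. PPS-LM exceeded PPS-24h by a ratio of 12.2 (interval 6.19 to 27.3), the other 3 LM conditions together by 24.0 (13.7 to 45.3), and PPS-DE(b), with 0 counts, by at least 18.5-fold.

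Since longer transcripts give more reads, the 3 AP-2 genes were compared as CPM per kb of their canonical transcript. On this scale TFAP2C made up 99.2% and 98.1% of their sum in the control libraries. It made up 79.4% to 100% in the 8 DE(b) libraries, while TFAP2A made up 74.8% to 94.7% in the 8 LM libraries. At 24 h the share of TFAP2A was 12.5% and 22.6% in DE(a), 11.3% and 24.4% in APS, 54.2% and 76.9% in MPS, and 63.1% and 81.7% in PPS. In PM it was at most 8.66% from DE(a) and APS, and 28.5% to 57.3% from MPS and PPS. The share of TFAP2B was at most 1.21% in any library, in PPS-LM replicate 2.

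**Figure D3:**
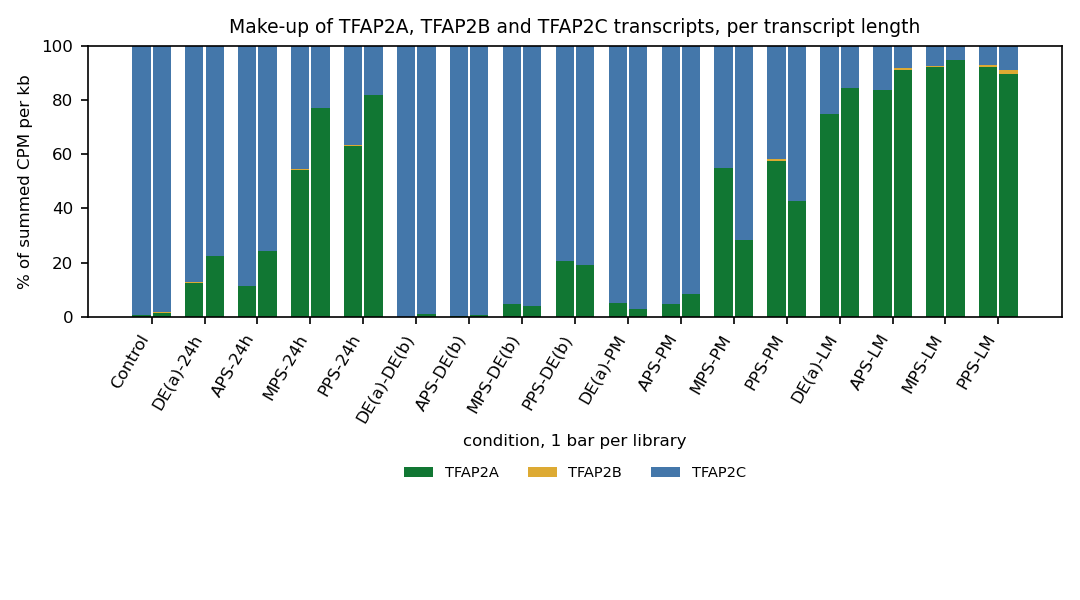
Shares of TFAP2A, TFAP2B and TFAP2C in their summed CPM per kb of transcript, in percent, with 1 bar per library and 2 bars per condition. TFAP2C makes up most of the bar in control and DE(b) libraries (79.4% or more), and TFAP2A in LM libraries (74.8% or more).

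VTCN1 was likewise concentrated in PPS-LM. Its values there were 5.77 and 9.74 CPM, and in every other library it was at most 0.518 CPM. PPS-LM held 288 of its 364 counts, while 23 of the 34 libraries had at most 3 counts and 11 had 0. The highest other value was in DE(a)-24h replicate 1, with 10 counts, and the control libraries had 5 and 3. PPS-LM thus stood clear of all other libraries, including those of the other LM conditions, which had 22 counts in 6 libraries.

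The ratio of PPS-LM to MPS-LM was 73.8 (interval 28.5 to 273), to DE(a)-LM 28.3 (15.2 to 59.6) and to APS-LM 36.7 (18.4 to 85.7). At 24 h, PPS cells had only 2 counts, 1 in each library. PPS-LM exceeded PPS-24h by a ratio of 142 (interval 39.0 to 1180). The other media gave no such level after PPS, with 4 counts in PPS-DE(b) and 3 in PPS-PM.

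GABRP was detected in pluripotent cells, was lower in most differentiated conditions, and was highest in PPS-LM. It was at 3.12 and 4.15 CPM in the control. At 24 h it was at 3.27 and 4.88 CPM in DE(a), 4.87 and 4.71 in APS, and 2.35 and 3.46 in MPS, and it was at 0.790 and 0.542 in PPS. The PPS libraries were below all others of 24 h. PPS was below the control by −2.40 (SE 0.66, adjusted p = 0.0083 by edgeR, 29.8% of genes called), a call that was lost without PPS-24h replicate 2 (−2.18, adjusted p = 0.077). Its difference from MPS, −2.18 (SE 0.66), had an adjusted p of 0.053 by edgeR and of 0.0074 by DESeq2.

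On the second day, GABRP was at 0.602 to 2.07 CPM in the DE(b) libraries and at 0 to 1.83 in the PM libraries. In LM it was at 1.72 and 5.40 CPM after DE(a), 0.670 and 0.859 after APS, 0.931 and 0.664 after MPS, and 31.8 and 51.9 after PPS. PPS-LM was above the control by 3.60 (SE 0.64, adjusted p = 9e-05 by edgeR, 41.1% of genes called), and DE(a)-LM replicate 2 also lay above both control libraries. The PPS-LM libraries held 1555 of the 2698 counts of the gene.

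PPS-LM exceeded MPS-LM by 5.70 (SE 0.72, adjusted p = 2.5e-05 by edgeR), APS-LM by 5.80 (SE 0.72, adjusted p = 8.1e-06 by edgeR) and DE(a)-LM by 3.63 (SE 0.64, adjusted p = 0.00031 by edgeR). It exceeded PPS-24h by 6.00 (SE 0.73, adjusted p = 2.1e-06 by edgeR), PPS-PM by a ratio of 184 (interval 99.7 to 384, adjusted p = 2.7e-07 by edgeR, 22.8% of genes called) and PPS-DE(b) by 5.37 (SE 0.71, adjusted p = 6.1e-06 by edgeR, 19% of genes called). These 6 calls held when any library was left out. The counts of PPS-PM were 10 in replicate 1 and 0 in replicate 2. From the other starts the second day in LM did not raise GABRP: the difference from 24 h was −0.29 (SE 0.59, adjusted p = 0.76 by edgeR) for DE(a), −2.68 (SE 0.66, adjusted p = 0.0026) for APS and −1.88 (SE 0.65, adjusted p = 0.031) for MPS. The last was not called without MPS-24h replicate 2 or either MPS-LM library. The means over all 4 starts, higher in LM than in PM by 2.46 (SE 0.35) and than in DE(b) by 1.54 (SE 0.33), therefore cover unlike values, and the first was 3.73 without PPS-PM replicate 1. DE(a)-LM was above MPS-LM by 2.08 (SE 0.65, adjusted p = 0.034 by edgeR). Its replicates had 27 and 113 counts, and without DE(a)-LM replicate 2 the difference was 0.95 (adjusted p = 0.52), while without MPS-LM replicate 1 or 2 it had an adjusted p of 0.11 or 0.25.

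Against the control, 16 conditions were tested. In the order of the plot, the share of all genes called was 19%, 24.5%, 30% and 29.8% at 24 h, 34.7%, 38.4%, 38.3% and 34.6% in DE(b), 31.4%, 35%, 35.8% and 40.9% in PM, and 34.9%, 43.4%, 41.6% and 41.1% in LM. TFAP2A was higher in 12 of them and lower in 0, and 9 of these calls held when any 1 library was left out. TFAP2C was higher in 3 and lower in 8, of which 0 and 5 held. GABRP was higher in 1 and lower in 9, of which 1 and 2 held.

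The 5 genes differed in the shares of their variation that went with day 1, with day 2 and with the interaction of the days. Over the 24 libraries of 48 h, the day 2 medium took 84.9% of the sum of squares of TFAP2A in log2(CPM + 1), the day 1 population 12.4% and their interaction 2.07%. For TFAP2C the shares were 54.4%, 18.5% and 23.5%. For GABRP the interaction was the largest share at 50.3%, and for VTCN1 and TFAP2B it was 46% and 42.1%. VTCN1 and TFAP2B had 79.12% and 78.17% of their counts in PPS-LM and passed the filter only through it. A gene high in a single condition has a large interaction share from the layout alone. The shares of VTCN1 and TFAP2B therefore restate their level in PPS-LM and cannot show how the days combined. GABRP was also highest in PPS-LM. Differences between replicates took 0.701% (TFAP2A) to 5.57% (TFAP2B). These shares describe the libraries and carry no test.

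The interaction was tested for PPS against MPS, which differ in activin alone. For GABRP, the PPS minus MPS difference was larger after LM than after DE(b), by 5.11 (SE 0.97, adjusted p = 0.0033 by edgeR), than after PM, by 6.49 (SE 1.09, adjusted p = 0.0028 by edgeR), and than at 24 h, by 7.88 (SE 0.96, adjusted p = 6.5e-05 by edgeR). These tests called 4.2%, 1.03% and 2.4% of all genes. The value against PM was 5.72 without MPS-PM replicate 1, with an adjusted p of 0.086 by edgeR, and 11.59 without PPS-PM replicate 1. For TFAP2C, the difference was larger after LM than after DE(b), by 2.78 (SE 0.44, adjusted p = 0.00081 by edgeR), while those from PM (1.45, SE 0.46) and 24 h (0.14, SE 0.44) had adjusted p values of 0.18 and 0.97 by edgeR. For TFAP2A, the values were −0.09 (SE 0.61), 0.39 (SE 0.62) and −0.74 (SE 0.56), with adjusted p values by edgeR of at least 0.67.

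Related genes were taken from lists. Of the remaining AP-2 genes, TFAP2D was at most at 0.139 CPM in the mean of a condition, and TFAP2E at most at 1.24 CPM, in PPS-LM. TFAP2E differed between PPS-LM and MPS-LM by 1.00 (SE 0.73, adjusted p = 0.61 by edgeR). Of 8 cofactors and inhibitors of AP-2, 0 were called in PPS-LM against MPS-LM, where 5.6% of all genes were called. Their median log2 fold change was 0.13 beside 0 for all genes tested. In LM against PM, 1 of the 8 was higher and 2 lower, a share no larger than the 42% of all genes called there. CITED2, a coactivator of AP-2 factors, was higher by 1.25 (SE 0.16), and its relatives CITED1 and CITED4 were lower, by −7.47 (SE 0.42) and −0.66 (SE 0.26).

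Of 19 GABA-A receptor subunits, 17 were tested, and GABRP was the 1 called in PPS-LM against MPS-LM, where 5.6% of all genes were called. The median of the 17 was 0.93. In PPS-LM against the control, 2 were higher and 8 lower, with a median of −1.99, beside 41.1% of all genes called. In LM against DE(b), 3 were higher and 4 lower over the 4 starts, a share close to the 39.6% of all genes called there, with GABRA5 among the latter by −2.70 (SE 0.29). GABRE, the epsilon subunit, was lower in PPS-LM than in DE(a)-LM by −3.25 (SE 0.49, adjusted p = 5.4e-05 by edgeR), where GABRP was higher. Of 10 B7 family genes, 5 were tested, VTCN1 among them only through the PPS-LM libraries, and 0 of the other 4 were called in PPS-LM against MPS-LM. CD276 (B7-H3) was at 220 and 192 CPM in PPS-LM and at 223 and 226 in MPS-LM, with a difference of −0.14 (SE 0.15). CD274 (PD-L1) was at most at 0.916 CPM in the mean of a condition, in PPS-LM, and its difference had an adjusted p of 0.26 by edgeR.

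Of 16 other amnion markers, 15 were tested. In LM against PM, where 42% of all genes were called, 14 were higher and 1 lower, with a median of 4.90 beside 0.00417 for all genes. Several of these, such as HAND1 and BMP4, also mark lateral mesoderm. In PPS-LM against MPS-LM, where 5.6% of all genes were called, 7 were higher and 1 lower, with a median of 2.11 beside 0 for all genes. Those higher were IGFBP3 (4.70, SE 0.37), KRT7 (4.74, SE 0.99), HEY1 (3.13, SE 0.83), WNT6 (2.99, SE 0.66), EPAS1 (2.87, SE 0.56), DLX5 (2.57, SE 0.67) and ISL1 (2.11, SE 0.59), and POSTN was lower (−1.81, SE 0.53). IGFBP3, a binding protein of insulin-like growth factors, was at 709 and 697 CPM in PPS-LM, and between 10.9 and 41.0 in the other LM libraries. KRT7, a keratin of simple epithelia, was at 7.18 and 9.97 CPM in PPS-LM, 3.50 and 5.78 in DE(a)-LM, and at most 0.483 in APS-LM and MPS-LM. Its control mean was 7.48 CPM, so that PPS-LM was near the level of undifferentiated cells. HAND1 was at 1892 and 1826 CPM in PPS-LM and 1790 and 2127 in MPS-LM, with a difference of −0.09 (SE 0.47). GATA3, which BMP4 induces in amnion and trophoblast, was at 107 and 136 CPM in PPS-LM and 129 and 140 in DE(a)-LM. In DE(a)-LM against MPS-LM, where 14.4% of all genes were called, 2 of the 15 markers were higher and 3 lower. Their median there was 0.0209.

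Of 13 surface ectoderm markers, 12 were tested, and 2 of them are also on the amnion list (KRT18 and DLX5). In PPS-LM against MPS-LM, where 5.6% of all genes were called, 6 were higher and 0 lower, with a median of 2.50. They were GRHL2 (3.62, SE 0.43), ESRP1 (3.58, SE 0.30), OVOL2 (3.15, SE 0.83), EPCAM (2.80, SE 0.28), DLX5 and OVOL1 (2.43, SE 0.68). ESRP1 was at 39.0 and 56.2 CPM in PPS-LM, below its control mean of 214. OVOL1 was at 1.74 and 2.35, below 4.05 in the control. GRHL2 (32.1 and 55.9) and OVOL2 (2.99 and 4.39) lay around their control means of 37.8 and 4.18. EPCAM (289 and 343) and DLX5 (8.94 and 16.9) were above theirs, of 205 and 0.0492. A higher level than in MPS-LM is therefore not by itself a gain over undifferentiated cells. In DE(a)-LM against MPS-LM, where 14.4% of all genes were called, 7 were higher and 0 lower. Among them were GRHL2 (3.28, SE 0.43), ESRP1 (4.11, SE 0.30) and GRHL3 (2.56, SE 0.66). Between PPS-LM and DE(a)-LM, GRHL2 differed by 0.33 (SE 0.38) and ESRP1 by −0.53 (SE 0.26), with adjusted p values of 0.69 and 0.21 by edgeR, while IGFBP3 differed by 4.37 (SE 0.37, adjusted p = 3.4e-08 by edgeR) and EPCAM by 1.48 (SE 0.26, adjusted p = 0.00038 by edgeR). TP63, a p53 relative of stratified epithelia, was at 4.79 and 6.91 CPM in PPS-LM and at most at 0.569 in the other LM libraries, with an adjusted p of 0.15 by edgeR against MPS-LM. KRT14 was at 0 and 0.0547 CPM in PPS-LM and KRT5 at 0 in both libraries.

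**Figure D4:**
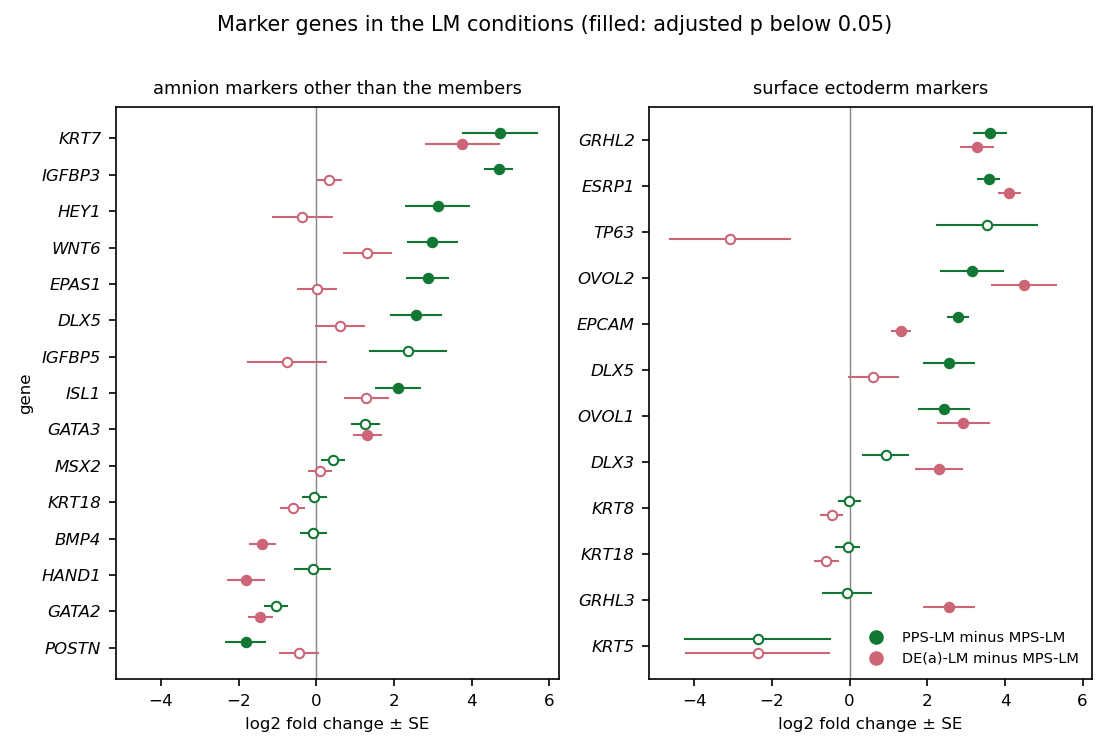
Log2 fold changes with SE of amnion markers (left) and surface ectoderm markers (right) in PPS-LM minus MPS-LM (green) and DE(a)-LM minus MPS-LM (pink), filled where the adjusted p was under 0.05. Against MPS-LM, IGFBP3 is higher in PPS-LM alone (4.70), and GRHL2 and ESRP1 are higher in both.

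Markers of trophoblast were low, with at most 6.03 CPM in the mean of a condition, for ERVW-1 in DE(a)-DE(b). Of 12 such genes, 4 were tested. In PPS-LM against MPS-LM, which called 5.6% of all genes, 0 were called and the median was 2.27, beside 0 for all genes. In PPS-LM against the control, 2 of the 4 were higher, beside 41.1% of all genes called. The summed level of the 12 genes was 6.72 and 8.89 CPM in PPS-LM, of which TP63 made up most, and 0.87 to 1.96 CPM in the other LM libraries. In PPS-LM, ELF5 and VGLL1 were at 0 in 1 library each and at 0.0547 CPM in the other, and PSG1 and HLA-G were at 0 in both. HLA-G had 7 identifiers, and its value is that of 1 of them. CGA was at 0.420 and 0.547 CPM in PPS-LM and at 0 in both MPS-LM libraries. Of 10 neural crest markers, 0 were higher and 1 lower in PPS-LM against MPS-LM, and of 8 primordial germ cell markers and 6 pluripotency markers 0 were called there. With 5.6% of all genes called in that comparison, few or no calls are common in lists of this size. In DE(a)-LM against MPS-LM, which called 14.4% of all genes, 5 of the 8 germ cell markers were higher. Among them were PRDM1 (4.00, SE 0.52) and SOX17, which endoderm also expresses. Of the 6 pluripotency markers, 4 were higher and 0 lower in that comparison. Of 6 lateral mesoderm markers, 0 were called in PPS-LM against MPS-LM, with a median of −0.08, and their summed CPM was 2557 and 2372 in PPS-LM. In DE(a)-LM against MPS-LM, 0 of them were higher and 4 lower, with a median of −1.60.

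The genes with the most similar pattern were named by Pearson's r of condition means of log2(CPM + 1) over the 17 conditions, among 13737 genes with at least 5 CPM in a condition. This is a description across conditions, which share media and depth, and carries no test. For TFAP2A they were WWC3 (r = 0.963), DIO2 (0.960), GATA3 (0.951), DMRTA2 (0.942) and PRKD1 (0.941). For TFAP2C they were ATP8A1 (0.874), RPS6KA6 (0.865), ITLN2 (0.836), CERS4 (0.823) and CCKBR (0.819). For TFAP2B they were MMP13 (0.977), ALX4 (0.973), DUOXA1 (0.970), VTCN1 (0.969) and EVX2 (0.962). For VTCN1 they were DUOXA1 (0.990), MMP13 (0.978), ALX4 (0.954), TP63 (0.953) and EVX2 (0.949), so that this list and that of TFAP2B share 4 genes. TFAP2B and VTCN1 were near 0 outside PPS-LM, and all genes on their lists were highest in PPS-LM. A gene found chiefly in that condition has a high r with both, so that the overlap carries no further information. For GABRP they were AC118754.1 (0.911), SHROOM3 (0.874), VTCN1 (0.869), IGFBP3 (0.852) and DUOXA1 (0.847). Between the members themselves, r depended on PPS-LM in several pairs. For VTCN1 and TFAP2B it was 0.158 without that condition, and for VTCN1 and GABRP it went from 0.869 to 0.590. For TFAP2B and GABRP it went from 0.769 to −0.309, and for TFAP2A and GABRP from 0.327 to −0.174. TFAP2A and TFAP2B, at 0.627, were at 0.768 without that condition. Outside PPS-LM, TFAP2B had at most 9 counts in a condition, so that the values of its pairs there rest on counts near 0. TFAP2A and TFAP2C were at 0.0292 over all 17 conditions.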

How the data were processed

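The authors sequenced poly(A) RNA (stranded libraries, 2 x 75 bp) and estimated transcript abundance with Salmon 1.10.2 against transcripts of GRCh38, correcting for GC and sequence bias. The deposited values are estimated counts, summed to genes by the authors in R 4.4.2, and they were rounded to whole numbers here. Counts were filtered (filterByExpr), scaled by TMM and tested with edgeR 4.0.16 (limma 3.58.1, R 4.3.3) in 1 model with a coefficient for each of 17 conditions and 17 residual degrees of freedom, over 60 contrasts. The script was tested on simulated data. Replicates are biological per the labels. Groups and times follow the labels. Totals of 15522780 to 23439799 set the precision of low values. PCR duplicates cannot be told apart, so intervals and floors cover counting error only. Alternatives were RLE scaling, no filter, a replicate block, only the libraries compared, leaving out each library, DESeq2 1.42.0, and a pseudocount of 0.1 and TMM-scaled CPM for the pattern lists. Annotation was GENCODE 44.

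The members and lists were chosen with earlier results of these data known. Named genes are the members, from each list up to 4 genes with the highest level and those called in LM against PM or PPS-LM against MPS-LM, and for each member the 5 genes with the highest r. Other list genes, such as CD274, TFAP2D, ELF5, VGLL1, PSG1, HLA-G, KRT14 and TP63 as a list gene, were chosen after their values were seen.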

Additional observations from a re-analysis of the deposited data

Results flagged for a closer look

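The difference between PPS and MPS was compared between LM and the other settings by a test of the difference itself in edgeR. For GABRP it was larger after LM by 5.11 than in DE(b), by 6.49 than in PM and by 7.88 than at 24 h on the log2 scale (adjusted p = 0.0033, 0.0028 and 6.5e-05 by edgeR), with both PPS-LM libraries above all 32 others. For TFAP2C it was larger by 2.78 than in DE(b) (adjusted p = 0.00081 by edgeR), and the values against PM (1.45) and 24 h (0.14) had adjusted p values of 0.18 and 0.97 by edgeR. VTCN1 passed the filter only through PPS-LM, so that its fitted values give no support: they were 7.60 against 24 h (adjusted p = 0.028 by edgeR, and 0.058 with only the libraries compared) and 5.22 against DE(b) (adjusted p = 0.20 by edgeR). They depend on low counts, 4 and 0 in MPS-LM and 1 in each PPS-24h library, and are no measure of size.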

How the results depend on the processing

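RLE scaling changed no call in 126 results of the 5 genes. These counts include fitted results of TFAP2B and VTCN1, which passed the filter only through PPS-LM. The part of the counts that comes from TFAP2B and VTCN1 is therefore no support. Fits without the filter, with only the libraries compared and by DESeq2 lost 1, 12 and 5 calls and gained 2, 1 and 1, with no change of direction. Refits without single libraries lost the call in 119 of 660 values and changed the direction in 9. All replicate 1 libraries were deposited in 1 set and all replicate 2 libraries in another, named as a repeat. The labels do not say that a replicate number marks a shared batch. Correlations of the replicate deviations between pairs of conditions ran from −0.196 to 0.569 (median 0.162), with 96 of 136 over 0.1. Many pairs thus moved together. The main fit did not treat the libraries as paired, and whether replicates share a batch was not tested. A replicate block gave a call of GABRP for PPS against MPS at 24 h (−2.16, adjusted p = 0.041 by edgeR), lost 1 call, VTCN1 in DE(a)-PM against the control (adjusted p = 0.051), and changed no other. GABRP was also called at 24 h without the filter (−2.17) and by DESeq2 (−2.17), while TFAP2A was 2.83 with only those libraries (adjusted p = 0.050 by edgeR). TFAP2B was called in PPS-LM against MPS-LM without the filter (5.14) and with only those libraries (5.14), on 3 counts in MPS-LM. It and VTCN1 passed the filter only through PPS-LM, so that these calls are no support. With only the libraries compared, the GABRP interaction against PM had an adjusted p of 0.10, TFAP2A in PPS-PM against APS-PM 0.054 and GABRP in DE(a)-LM against MPS-LM 0.11 by edgeR. The cause of these changes was not tested.

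Of all genes, 1098 were called for PPS against MPS at 24 h, against 1876 without the filter, 1717 with the block, 296 with only those libraries and 1675 by DESeq2. For PPS-LM against MPS-LM there were 1002, and 1560 without the filter. The interaction against DE(b) called 752, against 1434 without the filter and 1133 by DESeq2. That against PM called 185, against 774, 291 (block), 63 (only those libraries) and 398 (DESeq2), and that against 24 h 430, against 1025, 170 (only those libraries) and 721 (DESeq2).

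Leaving out 1 library at a time, in fits with 11 in place of 21 grid points for the dispersion, TFAP2A in PPS-LM against MPS-LM lay between 1.73 and 2.34. VTCN1 lay between 5.04 and 10.29, with 4 and 0 counts in the MPS-LM libraries, which is no measure of size. It and TFAP2B passed the filter only through PPS-LM, so that their ranges here are no support. Uncalled interaction values changed sign: TFAP2A lay between −0.43 and 0.18 against DE(b) and between −0.13 and 0.92 against PM, and against 24 h TFAP2B lay between −0.10 and 2.91 and TFAP2C between −0.46 and 0.55. No interaction or mean over 4 starts is given for TFAP2B or VTCN1 where a group had 0 counts. With a pseudocount of 0.1, the pattern lists shared 2, 3, 4, 2 and 3 of 5 genes with those given for TFAP2A, TFAP2B, TFAP2C, VTCN1 and GABRP. Depth limits TFAP2B and VTCN1 outside PPS-LM, where most libraries are at or under 3 counts.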
